A study of Homo sapiens with 6 samples.

Results

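The genes described here carry glucose into the cell and through the first steps of glycolysis: the glucose transporters SLC2A1 and SLC2A3, the hexokinases HK1, HK2, HK3 and HKDC1, the isomerase GPI, and the phosphofructokinases PFKL, PFKM and PFKP. These 10 genes were picked by name, and each matched 1 row of the 57820 gene rows per library. RNA was measured by poly-A RNA-seq in U266, a human multiple myeloma cell line of plasma cell type, in 3 control samples and 3 samples overexpressing MYC from a lentiviral vector with the EF1A promoter. The labels do not say whether the control cells carry a vector, whether the MYC cells are 1 clone or a pool, or whether each sample had a culture of its own. All p-values below thus cover the spread between these samples alone, and that spread may be technical.

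Glucose enters cells through facilitative transporters. SLC2A1 (GLUT1) serves basal uptake in most cells, and SLC2A3 (GLUT3) has a high affinity for glucose and is known from neurons and blood cells. Hexokinases then trap glucose as glucose 6-phosphate, GPI converts it to fructose 6-phosphate, and phosphofructokinase makes fructose 1,6-bisphosphate, the committed step of glycolysis. HK2 and SLC2A1 are among the genes known as MYC targets in other cells. MYC with its partner MAX binds the E-box, whose canonical form is CACGTG.

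The promoter of HK2 is shown first, because HK2 had a large change and is the member whose promoter windows hold this motif. RefSeq windows (GRCh38.p14, 250 bases before to 50 bases after each transcript start) were found for 9 of the 10 genes, 25 windows in all, and not for SLC2A3. The motif CACGTG, which reads the same on both strands, was present in windows of 1 of these 9 members, HK2. It was present in a window of 8.77% of all 27305 genes in the table, and in 7.26% of all 35116 windows. HK2 has 2 transcript starts in this table, 1043 bases apart, and both copies of the motif lie before the downstream start, 149 and 194 bases from it, at chr2:74835021-74835026 and chr2:74834976-74834981. That stretch lies inside HK2, outside its GENCODE 29 exons and so in an intron of the transcript that begins upstream. Below, each stretch runs 5′ to 3′ on the plus strand, is the part of its window before the start that lies outside the exons of its gene, and has CACGTG in capitals. The upstream HK2 stretch is chr2:74833877-74833980, the downstream HK2 stretch is chr2:74834920-74835169, and the PFKL stretch, shown for the member with the largest decrease, is chr21:44299803-44300050.
HK2 upstream start: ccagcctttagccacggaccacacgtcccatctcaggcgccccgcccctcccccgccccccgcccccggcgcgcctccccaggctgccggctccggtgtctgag
HK2 downstream start: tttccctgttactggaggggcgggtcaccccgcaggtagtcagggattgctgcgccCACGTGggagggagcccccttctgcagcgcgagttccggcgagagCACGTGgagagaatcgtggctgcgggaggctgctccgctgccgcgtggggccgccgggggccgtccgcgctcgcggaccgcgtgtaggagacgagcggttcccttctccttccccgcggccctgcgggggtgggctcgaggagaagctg
PFKL: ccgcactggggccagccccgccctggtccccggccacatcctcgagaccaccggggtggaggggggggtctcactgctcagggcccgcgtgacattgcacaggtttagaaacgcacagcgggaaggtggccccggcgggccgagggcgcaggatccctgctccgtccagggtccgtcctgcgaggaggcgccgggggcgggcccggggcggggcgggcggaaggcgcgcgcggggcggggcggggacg
The PFKL stretch and the upstream HK2 stretch hold no copy of the motif and are 77.8% and 77.9% G and C, and the downstream HK2 stretch is 71.6% G and C. Exons of another gene, AC019069.1, overlap the upstream HK2 stretch. The gene tables do not tell transcripts from the 2 HK2 starts apart, and binding at these letters was not measured.

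The libraries held between 27139978 and 158667309 expected counts. MYC stood at 3.91, 4.16 and 4.51 CPM (counts scaled to library size) in control and at 105.4, 110.3 and 92.1 CPM in MYC libraries, so the labels and the introduced gene go together, although vector and endogenous reads were not told apart. All 10 plasma cell markers reached 1 TPM (a level scaled to transcript length and library size) or more in at least 1 library. Their summed level was 7120 to 7510 TPM in control and 4070 to 4610 TPM in MYC libraries (1 called higher and 6 lower). Summed markers of B cells, T and NK cells, myeloid, stromal, epithelial and erythroid cells lay between 0.32 and 14.7 TPM, and MS4A1 and COL1A2 stayed under 0.1 TPM in every library. Sums without overlap were higher in MYC libraries for B cell markers (0.32 to 0.47 TPM in control, 0.52 to 0.95 in MYC), T and NK markers (8.76 to 11.5 and 12.6 to 14.7) and epithelial markers (4.0 to 4.78 and 7.59 to 8.69), and lower for erythroid markers (7.08 to 9.05 and 3.85 to 4.84). Of the 5 T and NK markers 2 were called higher and 2 lower, and of the 4 in each other list of these, 1 was called, in the direction of its sum. Their part in the results was not tested. Fold changes in this series followed the GC content of transcripts: genes of 38 to 42% GC had a median of 0.25 on the log2 scale, and genes of 62 to 66% GC a median of -1.24. Each member is therefore given with and without an offset that removes each library's GC trend.

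Of the 10 members, 5 rose in MYC cells (SLC2A3, HK1, HK2, GPI and PFKM), 2 were called lower (SLC2A1 and PFKL) and 3 did not pass the test (HK3, HKDC1 and PFKP). A call is an adjusted p under 0.05 in edgeR's quasi-likelihood test over 17679 genes, where 28.8% of all genes were called higher, 32.1% lower and 60.8% either way. The CPM of the groups did not overlap for 7 of the 10 members, as for 67.1% of all genes. The members' median log2 fold change was 0.15, against -0.02 for all genes tested. With the GC offset 6 members were higher, PFKP among them, and PFKL alone was lower, where 26.2% and 32.7% of all genes (58.9% together) were called. An offset for effective length gave 6 higher and 2 lower, where 55.1% of all genes were called and 26.1% were higher. Called higher by at least 2-fold were HK2 and SLC2A3, where 5.62% of all genes were so called (6.07% with the GC offset, 5.44% with the length offset). PFKL was lower by at least 2-fold, as 12.4% of all genes were, and again with the length offset (11.5% of all genes) but not with the GC offset (5.01%). The count of 7 members called either way is near the background, and so is the count without overlap.

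**Figure D1:**
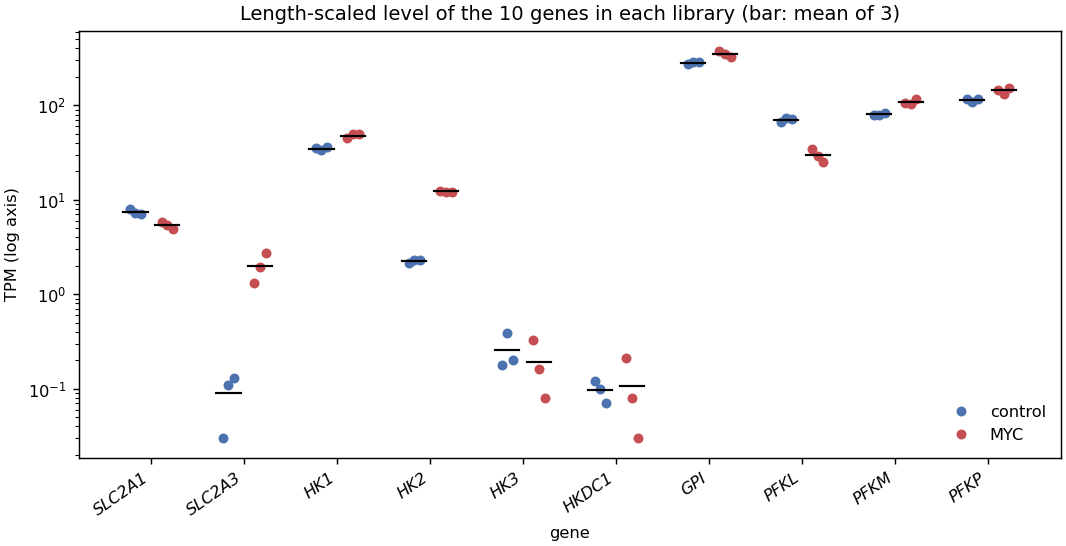
Level of each of the 10 genes in TPM (log axis) in the 3 control (blue) and 3 MYC (red) libraries, with the mean of each group as a bar. The MYC libraries lie at 12.03 to 12.5 TPM for HK2, above the controls at 2.16 to 2.33, and at 24.9 to 34.6 TPM for PFKL, below the controls at 66.4 to 72.7.

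Among the glucose transporters, SLC2A3 (ENSG00000059804.11) went from near absence to a low level. The control libraries held 2, 2 and 4 expected counts of it and the MYC libraries 88, 679 and 201, or 0.036, 0.0259 and 0.0303 CPM against 3.33, 4.36 and 3.70 CPM. All 3 MYC libraries lay far above all 3 controls. Summed over libraries, there were 8 control and 968 MYC counts, a ratio of 136 after scaling to the TMM-adjusted library sizes (exact 95% interval 68.6 to 315, counting error only). On the log2 scale the difference was 6.93 ± 0.23 (SE; edgeR, adjusted p = 3.4e-07), and 6.71 ± 0.22 with the GC offset (adjusted p = 2.39e-08, edgeR). Its size depends on the scale: it was 4.79 with an offset for effective length and 1.44 on log2(TPM + 1), both called.

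The reads of SLC2A3 have near-identical copies to go to, so the copies are given beside it. SLC2A14, its closest paralog, had 0 counts in 5 libraries and 1 count in MYC replicate 3. The processed pseudogene SLC2A3P1, named after its values were seen, had 5.83, 8.38 and 7.88 CPM in control and 2.65, 6.95 and 2.50 CPM in MYC libraries. The groups overlapped, and the pseudogene did not pass the test (-0.77 ± 0.35 on the log2 scale, edgeR adjusted p = 0.0881). It was called lower with the GC offset (edgeR adjusted p = 0.0243). SLC2A3P4, given as a further copy, had 1.0, 5.0 and 11.41 counts in control and 3.0, 15.65 and 4.0 counts in MYC libraries. SLC2A3P2, likewise a further copy, had 0 counts in 5 libraries and 1 count in MYC replicate 3. The expected counts of SLC2A3 were whole numbers in all 6 libraries.

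SLC2A1 (ENSG00000117394.15) was the more abundant transporter of the pair in every library. It measured 17.2, 17.6 and 16.5 CPM in control and 14.6, 13.2 and 10.9 CPM in MYC libraries, so the groups did not overlap. The fold change was 1.33-fold lower (log2 -0.41 ± 0.10, adjusted p = 0.00808, edgeR). The GC offset turned the sign, to 0.13 ± 0.06 (edgeR, adjusted p = 0.0946), and SLC2A1 is therefore reported without a direction. An antisense gene, SLC2A1-AS1, and a noncoding gene on the same strand, AC099795.1, overlap its exons in GENCODE 29, and the libraries do not mark strand.

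Because SLC2A3 rose from almost nothing, the makeup of the pair changed. SLC2A1 held 99.6%, 98.5% and 98.2% of their summed TPM in control and 81.8%, 73.7% and 64.0% in MYC libraries. The mean difference was -25.6 points, and the groups did not overlap (exact two-sided permutation p = 0.1, the smallest that 3 against 3 allows). After removal of the GC trend the difference was -19.9 points. The summed TPM of the pair overlapped between the groups, at 7.50 ± 0.410 in control and 7.41 ± 0.215 in MYC libraries (SD, n = 3 each). This sum carries no GC offset, with which SLC2A1 was not called lower. Control TPM values of SLC2A3 rest on at most 4 counts and on effective lengths of 299 to 1501 bases, so its control share of 1.23% ± 0.751 is imprecise.

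Of the hexokinases, the largest fold change was that of HK2 (ENSG00000159399.5), the inducible isoform that binds mitochondria and is prominent in tumours. HK2 measured 8.61, 9.73 and 9.41 CPM in control and 52.5, 50.5 and 47.9 CPM in MYC libraries. The groups stood apart by far more than their spread. HK2 rose 5.43-fold (log2 2.44 ± 0.07, adjusted p = 2.61e-07, edgeR), and by 2.40 ± 0.05 with the GC offset (adjusted p = 2.8e-09, edgeR). Over the 15 alternative settings it ranged from 2.02 to 2.48 and was called higher in all of them. A long noncoding gene on the other strand overlaps the exons of HK2 in GENCODE 29, and the pseudogene HK2P1 had 0 to 5 counts per library.

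HK1 (ENSG00000156515.17), the hexokinase of most tissues, which also binds mitochondria, rose by a smaller factor. Values were 86.7, 91.0 and 90.3 CPM in control and 120.0, 119.2 and 106.7 CPM in MYC libraries, with no overlap. HK1 rose 1.29-fold (log2 0.37 ± 0.06, adjusted p = 0.000999, edgeR), and by 0.26 ± 0.04 with the GC offset (adjusted p = 0.000772, edgeR).

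HK3, an isoform of myeloid cells, and HKDC1, a hexokinase-like gene that lies next to HK1, were near the floor. HK3 had 11 to 29 counts in control and 6 to 17 in MYC libraries, and HKDC1 10 to 15 and 4 to 26. The groups overlapped for both. Neither passed the test, with log2 fold changes of -0.73 ± 0.39 for HK3 (adjusted p = 0.141, edgeR) and -0.06 ± 0.39 for HKDC1 (adjusted p = 0.903, edgeR). HK3 was called lower without MYC replicate 1 (-1.06, adjusted p = 0.027, edgeR). On the other strand, exons of RPS15AP28, UNC5A and AL596223.2 overlap those of HK1, HK3 and HKDC1, respectively, in GENCODE 29.

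The share of HK2 among the 4 hexokinases was larger in MYC cells on the length-scaled level. HK2 made up 5.76%, 6.31% and 6.07% of their summed TPM in control and 21.7%, 19.3% and 19.9% in MYC libraries, a difference of 14.2 points (exact two-sided permutation p = 0.1, the smallest possible). HK1 remained the main isoform in all 6 libraries, at 93.0% ± 0.575 in control and 79.2% ± 1.58 in MYC libraries (SD, n = 3 each). The ratio of HK2 to HK1 in TPM went from 0.0650 ± 0.00334 to 0.256 ± 0.0207. Summed TPM of the 4 genes was 37.5 ± 0.827 in control and 60.5 ± 2.46 in MYC libraries, 1.61 times as much. This sum carries no GC offset, with which HK1 rose by 0.26 and HK2 by 2.40 on the log2 scale.

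ADPGK, an ADP-dependent kinase of the endoplasmic reticulum, also phosphorylates glucose. It was more abundant than HK1 in every library and fell from 100.4 ± 4.77 to 78.5 ± 3.32 TPM (1.24-fold, adjusted p = 0.00063, edgeR). It fell 1.15-fold with the GC offset. With ADPGK added, the summed level of 5 genes was 138.0 ± 5.29 TPM in control and 139.0 ± 4.81 TPM in MYC libraries, and the ranges overlapped. The sum with ADPGK carries no GC offset either. ADPGK was named for this total after its values were seen and not by the rule for named genes.

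**Figure D2:**
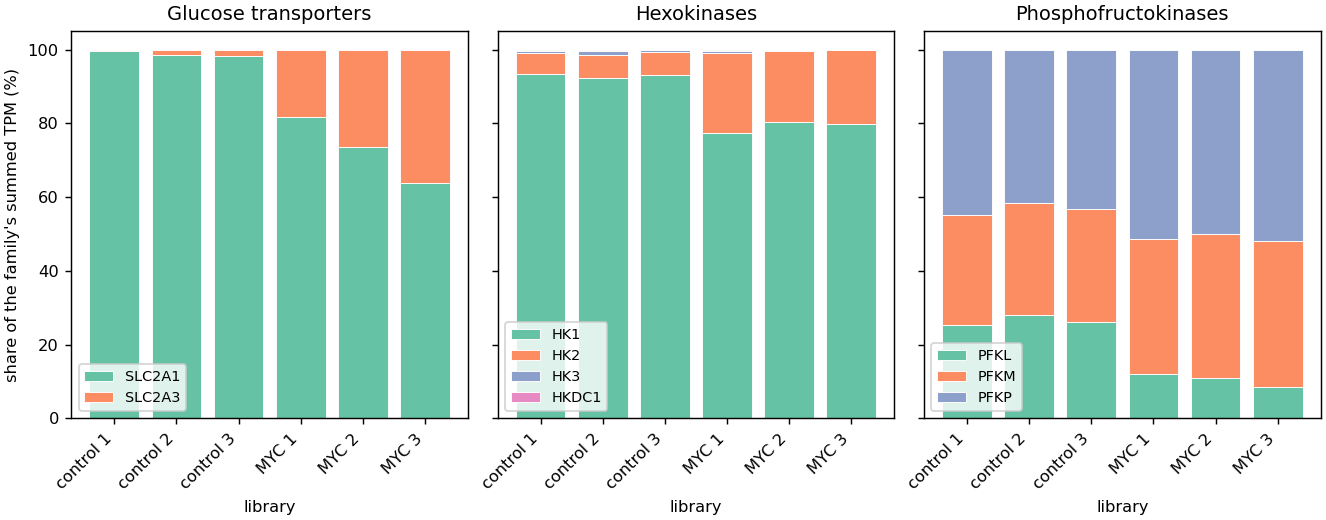
Share of each gene in the summed TPM of its family (percent, bars stacked to 100) in each of the 6 libraries, for the 2 glucose transporters, the 4 hexokinases and the 3 phosphofructokinases. HK2 grows from 5.76 to 6.31% in control to 19.3 to 21.7% in MYC libraries, and PFKL shrinks from 25.3 to 28.0% to 8.47 to 12.1%.

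GPI (ENSG00000105220.10), the isomerase between the hexokinase and phosphofructokinase steps, was the most abundant member per length in both groups. Its values were 360.3, 406.9 and 380.0 CPM in control and 580.9, 529.5 and 455.2 CPM in MYC libraries. All MYC libraries lay above the controls, and MYC replicate 3 was the closest to them. GPI rose 1.36-fold (log2 0.45 ± 0.09, adjusted p = 0.00306, edgeR), and 1.90-fold with the GC offset (log2 0.93 ± 0.04, adjusted p = 1.59e-07, edgeR).

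The phosphofructokinases went different ways. PFKM (ENSG00000152556.11), the muscle-type isoform, rose from 143.4, 154.3 and 156.5 CPM in control to 217.7, 208.6 and 218.4 CPM in MYC libraries. It rose 1.42-fold (log2 0.50 ± 0.06, adjusted p = 0.000103, edgeR), with no overlap between the groups, and 1.38-fold with the GC offset (adjusted p = 2.15e-05, edgeR). PFKM was the 1 member whose expected counts were not whole, so some of its reads were shared with another row, and SENP1 overlaps its exons in GENCODE 29.

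PFKL (ENSG00000141959.12), the liver-type isoform, fell. It measured 124.7, 139.2 and 128.8 CPM in control and 61.3, 49.2 and 36.3 CPM in MYC libraries, which differed among themselves but all lay under the controls. PFKL fell 2.69-fold (log2 -1.43 ± 0.16, adjusted p = 0.000111, edgeR). Its transcripts have the highest GC content among the members, 63.7%, and with the GC offset the decrease was 1.19-fold (log2 -0.25 ± 0.06, adjusted p = 0.00651, edgeR). The direction was the same in all 15 alternative settings, and the size ranged from -1.61 to -0.25 on the log2 scale.

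PFKP (ENSG00000067057.12), the platelet-type isoform, gave no single direction. Its counts stood at 179.0, 195.1 and 182.1 CPM in control and 181.4, 155.6 and 132.4 CPM in MYC libraries, and the groups overlapped (log2 fold change -0.25 ± 0.10, adjusted p = 0.0703, edgeR). Per length the order was the other way: 117.7, 108.2 and 118.0 TPM in control and 146.7, 132.5 and 152.6 TPM in MYC libraries, with no overlap. With the effective length offset PFKP was called higher (0.36 ± 0.06, adjusted p = 0.00132, edgeR), as it was with the GC offset (0.20 ± 0.05, adjusted p = 0.00602, edgeR). Without MYC replicate 1 it was called lower (-0.36, adjusted p = 0.00587, edgeR), and likewise without an expression filter (-0.27, adjusted p = 0.00862, edgeR).

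**Figure D3:**
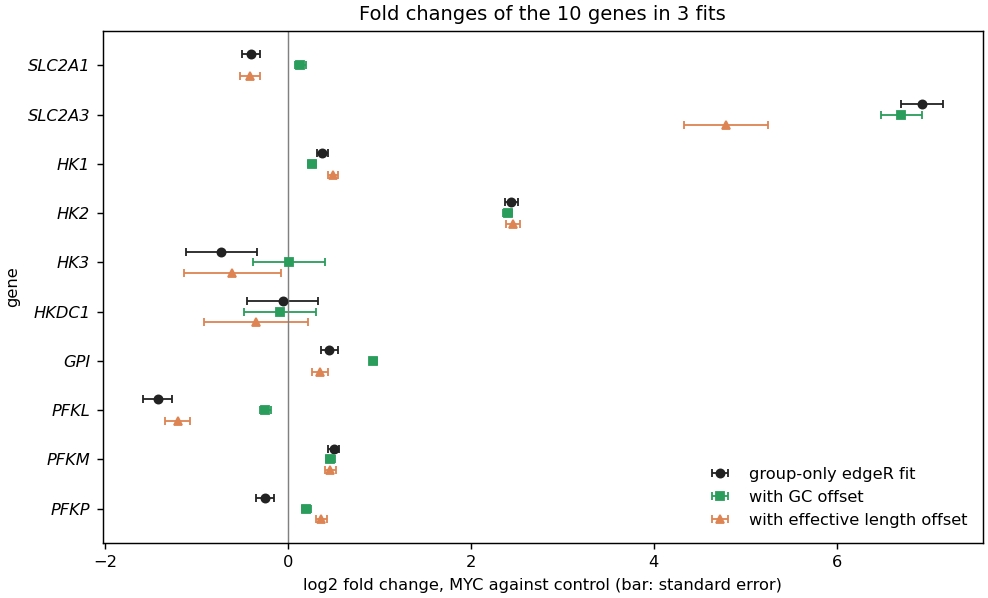
Log2 fold change of MYC against control with its standard error for each of the 10 genes, in the edgeR fit with the group only (black circles), with the GC offset (green squares) and with the effective length offset (orange triangles). HK2 stays between 2.40 and 2.46 in the 3 fits, while PFKL moves from -1.43 to -0.25 with the GC offset and PFKP changes sign.

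The deposited effective lengths show what lay behind the 2 scales for PFKP. Effective length is a mean over the transcripts of a gene, weighted by their estimated share. It can also differ slightly with 1 transcript listed: SLC2A3P1 had means of 1244 bases in control and 1228 bases in MYC libraries. A larger shift records a different estimated mix of transcripts. PFKP went from 2036, 2275 and 2019 bases in control to 1495, 1461 and 1154 bases in MYC libraries. Its mean fell by 35.1%, and the groups did not overlap. A ratio this low or lower was found in 1.65% of the 14444 genes tested with more than 1 transcript. PFKL was also shorter, at 2513, 2415 and 2363 bases against 2138, 2088 and 1937 bases, and so was HK1, at 3316, 3382 and 3300 bases against 3247, 2969 and 2883 bases. The mean of GPI was 5.72% longer and that of HK2 fell by 2.53%, each with no overlap. Across those genes the groups did not overlap and were shorter in MYC for 21.5%, and longer for 10.4%. The gene tables give no value per transcript, so which transcripts changed was not analysed here.

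**Figure D4:**
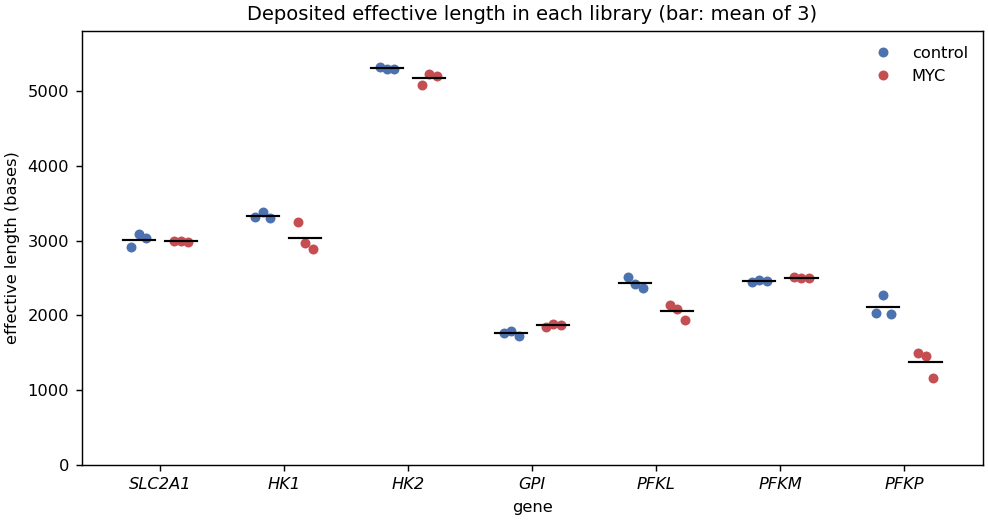
Deposited effective length in bases of 7 members with ample counts in the control (blue) and MYC (red) libraries, with group means as bars. PFKP lies at 2019 to 2275 bases in control and 1154 to 1495 bases in MYC libraries, while SLC2A1 overlaps between the groups.

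Among the 3 phosphofructokinases, PFKL held 25.3%, 28.0% and 26.1% of the summed TPM in control and 12.1%, 11.03% and 8.47% in MYC libraries. PFKM held 30.3% ± 0.353 in control and 38.4% ± 1.62 in MYC libraries, and PFKP 43.3% ± 1.56 and 51.0% ± 1.05 (SD, n = 3 each). None of these 3 shares overlapped between the groups (exact two-sided permutation p = 0.1 each, adjusted p = 0.1 over the 5 shares tested). After removal of the GC trend the difference for PFKL was -7.67 points in place of -15.9, and that for PFKM turned from 8.18 to -1.18 points. On CPM the PFKP difference turned from 7.77 to -2.56 points, so no direction is given for the shares of PFKM and PFKP. Total phosphofructokinase was 264.9 ± 6.90 TPM in control and 281.8 ± 14.5 TPM in MYC libraries, a ratio of 1.06 within overlapping ranges. This total carries no GC offset. With that offset PFKL was 1.19-fold lower, PFKM 1.38-fold higher and PFKP 1.15-fold higher, and a total was not computed.

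Ordered by mean TPM, the controls ran GPI, PFKP, PFKM, PFKL, HK1, SLC2A1, HK2, HK3, HKDC1 and SLC2A3. In the MYC libraries the order was GPI, PFKP, PFKM, HK1, PFKL, HK2, SLC2A1, SLC2A3, HK3 and HKDC1. HK1 thus stood above PFKL, with means of 47.9 and 29.6 TPM, and HK2 above SLC2A1, with 12.3 and 5.41 TPM. The orders carry no GC offset, which took the PFKL decrease from 2.69-fold to 1.19-fold, so the places of HK1 and PFKL may depend on it. Neighbours in these orders had separate ranges over the 3 libraries, except HKDC1 and SLC2A3 in control and HK3 and HKDC1 in MYC libraries.

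The other genes of the pathway were taken from 7 lists of 75 symbols, of which 74 matched and 59 were tested. Of these 22 rose and 23 fell, with a median log2 fold change of 0.04, where 28.8% and 32.1% of all genes were called. The GC offset gave 28 higher and 17 lower, with a median of 0.10, where 26.2% and 32.7% of all genes were called. The same shares of all genes stand behind the count of each list. The 3 VDAC channels of the outer mitochondrial membrane, where HK1 and HK2 dock, all rose. VDAC1 measured 196.6 ± 8.15 CPM in control and 395.3 ± 6.31 CPM in the MYC group (SD, n = 3 each). It was 2.01-fold higher (edgeR adjusted p = 3.64e-06), or 1.78-fold with the GC offset. VDAC2 and VDAC3 had log2 fold changes of 0.38 ± 0.05 and 0.60 ± 0.06, or 0.13 and 0.34 with the GC offset.

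Of the 7 tested genes of other glucose and hexose transporters, 2 rose and 3 fell, and the balance turned to 4 and 1 under the GC offset (median log2 fold change -0.04 and 0.52). SLC2A8, an intracellular transporter, fell from 44.8 to 16.0 CPM (log2 -1.49 ± 0.09, adjusted p = 5.34e-06, edgeR) and by 0.45 on the log2 scale with the GC offset. SLC2A4RG, which encodes a regulator of the GLUT4 gene, fell from 32.9 to 7.596 CPM (log2 -2.16 ± 0.18, adjusted p = 2.7e-05, edgeR) and by 0.46 with the offset. It belongs to the regulators, of which 1 of 6 rose and 3 fell, against 1 and 5 under the GC offset. TXNIP, an inhibitor of glucose uptake, had no match by symbol.

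Of 6 other sugar kinase genes, 2 rose and 4 fell, against 1 and 3 under the GC offset. The fructose kinase KHK fell from 28.8 to 12.4 CPM (log2 -1.23 ± 0.13, adjusted p = 8.95e-05, edgeR) and the galactose kinase GALK1 from 9.54 to 2.84 CPM (log2 -1.81 ± 0.22, adjusted p = 0.00018, edgeR). Both were also lower with the GC offset, by 0.69 and 0.50 on the log2 scale.

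Fructose 2,6-bisphosphate, the strongest activator of phosphofructokinase, is made and removed by the PFKFB enzymes. Of 7 genes in this control list, 3 rose and 2 fell, as many as under the GC offset. PFKFB3 is the isoform with the highest ratio of kinase to bisphosphatase activity. It measured 5.17, 4.95 and 5.01 CPM in control and 11.2, 11.2 and 9.36 CPM in MYC libraries. It rose 2.10-fold (log2 1.07 ± 0.09, adjusted p = 3.49e-05, edgeR), and 3.17-fold with the GC offset. PFKFB2 was called lower (log2 -0.25 ± 0.06, edgeR adjusted p = 0.00714), a call that ended on log2(TPM + 1) (adjusted p = 0.0974, limma). PFKFB4 did not pass (0.15 ± 0.12, adjusted p = 0.291, edgeR) but was called higher with the GC offset (0.32, adjusted p = 0.00899, edgeR). TIGAR, a fructose 2,6-bisphosphatase, was called higher (0.33 ± 0.11, adjusted p = 0.0317, edgeR), which did not hold on log2(TPM + 1) (0.27), under the GC offset (0.17), or when control replicate 1, 2 or 3 or MYC replicate 3 was left out (0.36, 0.29, 0.31 and 0.21).

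In lower glycolysis 5 of 14 genes rose and 4 fell, against 9 and 2 under the GC offset. ENO3, the muscle enolase, fell from 13.9 to 7.002 CPM (log2 -1.01 ± 0.11, adjusted p = 0.000112, edgeR) and by 0.62 on the log2 scale with the offset. In the branches that leave glycolysis at glucose 6-phosphate and fructose 6-phosphate 6 of 16 rose and 7 fell, against 7 and 4 under the offset. PGLS, an enzyme of the pentose phosphate pathway, was lower without the offset (log2 -1.12 ± 0.16, adjusted p = 0.000439, edgeR) and at 0.08 with it (edgeR, adjusted p = 0.402), and is left without a direction.

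**Figure D5:**
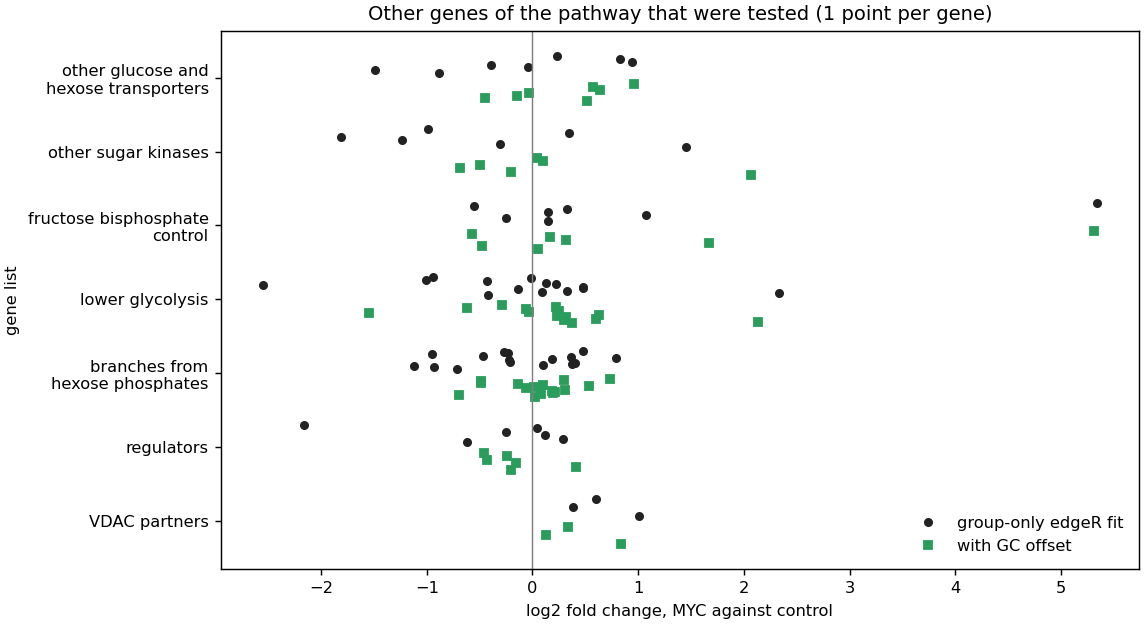
Log2 fold change of MYC against control for each tested gene of 7 pathway lists, 1 point per gene, in the edgeR fit with the group only (black) and with the GC offset (green). The 3 VDAC genes lie above 0 in both fits, while the other lists hold genes on both sides.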

How the data were processed

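Poly-A libraries were made with the NEBNext Ultra RNA kit, per the labels' protocols, and this kit leaves strand unmarked. Per the submitters' processing notes, cutadapt and TopHat2 were used with build GRCh37. Their versions, like the annotation, were not given in the sources used here. The authors deposited RSEM tables with an expected count, a TPM, an FPKM (not used) and a length and effective length per gene and library, per the file headers. Identifiers were matched to symbols without their version (51996 of 57820, with 98.3% of the counts).

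The counts, rounded to whole numbers, went into edgeR 4.0.16 (R 4.3.3) with filterByExpr defaults, TMM factors, a group-only model, the quasi-likelihood F test, Benjamini-Hochberg adjustment over 17679 genes, and an SE derived from F. CPM uses the TMM factors. Tested on simulated counts for these 17679 genes, the fit called 53.7% of genes changed 1.5-fold, 76.1% of those changed 2-fold and 89.4% of those changed 4-fold, while 13 of its 159 calls fell on unchanged genes. The simulation changed far fewer genes than the 60.8% called in the data and held no GC trend. Its rates may thus not carry over to the data. Alternatives were RLE factors, DESeq2 1.42.0, no filter, limma 3.58.1 on log2(TPM + 1) and log2(TPM + 0.1), an effective length offset, a GC offset (loess, span 0.4, on GENCODE 29 transcripts), a replicate block, and each library left out. All libraries of a group differed by more than sampling noise (chi-square over degrees of freedom of at least 8.74).

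Shares were computed on the deposited TPM. The members, lists and tests were chosen with earlier results of these data known. Named were the 10 members, MYC, SLC2A14, PFKFB2, PFKFB3, PFKFB4, TIGAR and TXNIP, listed genes called with a log2 change of at least 1 and a mean of at least 5 CPM, and the 3 closest profiles to 2 members. Where any further gene is named, the text says how it was picked. A few results that this rule or the planned settings cover are not reported here.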

Additional observations from a re-analysis of the deposited data

How the results depend on the processing

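HK1, HK2, SLC2A3, GPI, PFKM and PFKL kept their direction and call in all 15 alternative settings. The number of members called lower was 1 in place of 2 with the GC offset and with the replicate block and GC offset together, and 2 to 4 when a library was left out. Reversed were SLC2A1 (0.13 with the GC offset, 0.14 with that offset and the block), HK3 (0.01 and 0.04), PGLS (0.08 and 0.07) and PFKP (0.20 and 0.20). PFKP also reversed under the effective length offset (0.36) and in limma with a TPM pseudocount of 1 (0.32) or 0.1 (0.33). HKDC1 was at 0.01 on log2(TPM + 1) and ran from -0.16 to 0.19 without control replicate 1, MYC replicate 1 or MYC replicate 3, the 3 of 6 such settings in which it passed the expression filter. The cause was not tested. For shares, the HK2 difference of 14.2 points was 21.0 on CPM and 7.18 with ADPGK added, a setting chosen after seeing the data. The PFKL difference of -15.9 was -7.67 without the GC trend. That of PFKM (8.18) was 19.0 on CPM and -1.18 without the GC trend, and that of PFKP (7.77) was -2.56 on CPM. Depth limits the fold of SLC2A3, which rests on 2 to 4 control counts per library, and the values of HK3 and HKDC1. Pathway counts, an alternative added after seeing the data, stayed within 1.5 times.

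The labels number the samples 1 to 3 in both groups. Deviations of same-numbered samples correlated at -0.0472, 0.0779 and 0.110, so the numbers were not taken to pair the samples. With the replicate block 5 members were called higher and 2 lower, as without it.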

Other observations

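Profiles over the 6 libraries were compared among 9606 coding genes with a mean of at least 5 CPM, by the root mean square difference of centred log2 CPM. Closest to PFKL was MVP, the major vault protein (0.0115), and WDR13 was also among the 3 nearest (0.0239), with log2 fold changes of -1.43 and -1.44. Closest to SLC2A3 were PLEK (0.703), MYC (0.777) and TLR7 (0.916), with log2 fold changes of 4.76 for PLEK and 4.37 for TLR7. HK2, added after its values were seen, was nearest to IL32 (0.0685), SH3BP5 (0.0762) and ENAH (0.086), with log2 fold changes of 2.37, 2.32 and 2.41. These distances describe the libraries and carry no test.

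FBP2, the muscle fructose 1,6-bisphosphatase, which opposes phosphofructokinase, was named after its values were seen. It rose from 2, 0 and 2 counts in control to 17, 82.7 and 48.4 counts in MYC libraries (adjusted p = 5.4e-05, edgeR). FBP1, of the same list and given for comparison, went the other way, from 1.40 to 0.995 CPM (log2 -0.55 ± 0.20, adjusted p = 0.0436, edgeR). FBP2 stood at a mean of 0.686 CPM in MYC libraries, and the levels of FBP2 and FBP1 were not compared per length.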
